A study of Mus musculus with 9 samples.

Results

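Mice with intracerebral haemorrhage (ICH, a bleed into the brain) that were given pterostilbene (PTE) were compared with mice with ICH alone, by RNA sequencing of brain 72 hours after the treatment. The comparison uses 6 of the 9 libraries of the series, 3 labelled ICH+PTE and 3 labelled ICH, chosen by these labels and not by any measured value. The 3 sham libraries, labelled as 72 hours after a control treatment, entered no test and are printed only as a level. All animals were wild-type C57BL/6 mice with no transgene named in the labels. They were allotted at random to equal groups, 3 of each group were picked at random for sequencing, and each gave 1 library. The dose, route and schedule of PTE, the agent that caused the bleed, any vehicle given to the ICH or sham mice, the age and sex of the animals, and the hemisphere or block of brain taken are not stated in the labels. Of the 36346 genes in the deposited table, 14810 reached 1 FPKM in 3 or more of the 6 libraries and were tested. FPKM counts the fragments of a gene per length of its transcript and relative to all mapped fragments of the library, so it allows levels of different genes to be compared. Next to this limit, Pcdhb13 and Syne2 were just inside, at 1.0008 and 1.0012 FPKM in the library that decided it, and Naalad2 and Mir8114 just outside, at 0.99999 and 0.99996. Among the tested genes 296 reached the limit in no ICH library and 411 in no ICH+PTE library. Such a gene passed through 1 group only, so its difference is partly set by the filter.

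A bleed into the brain releases haemoglobin, haem and iron into the tissue. Resident microglia and blood-derived macrophages take up red cells and debris, load their lysosomes and lipid stores, and secrete cytokines, while astrocytes around the clot turn reactive and neurons in and near it die. Haem is opened by haem oxygenase, its iron is stored in ferritin, and the transcription factor NRF2 drives many of the enzymes that buffer the oxidants formed. PTE is a dimethylated analog of resveratrol, a stilbenoid of berries and grapes, studied as an antioxidant and anti-inflammatory compound. In bulk tissue, fewer cells of a type and less RNA per cell cannot be told apart, and this holds for every cell type marker below.

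Some libraries stood apart from others of their group in transcripts of blood and of restricted brain structures. Brain identity itself was plain in all of them: Snap25, the synaptic vesicle fusion protein of neurons, lay between 39.3 and 141 FPKM in every one of the 9 libraries. Ttr, the transthyretin of the choroid plexus, was at 389, 4.095 and 7.71 FPKM in the ICH+PTE libraries, against 881, 24.7 and 39.4 FPKM in the ICH libraries, and 933, 251 and 50.1 FPKM in the sham libraries. The first library of each group held the most of it. Pmch, the melanin-concentrating hormone precursor of the lateral hypothalamus, was at 11.2, 330.045 and 193 FPKM in the ICH+PTE libraries, against 2.37, 0.579 and 193 FPKM in the ICH libraries, and at 1.52 FPKM or less in sham. It was not called (3.43 ± 1.94, adjusted p = 0.165), except without ICH 3 (5.69, adjusted p = 0.0114). The haemoglobin gene Hbb-bs reached 15.9, 13.6 and 102 FPKM in the ICH+PTE libraries, against 24.3, 29.6 and 37.7 FPKM in the ICH libraries, and 1 treated library, ICH+PTE 3, was far above the other 8. Traces of intestinal transcripts such as Fabp6 were found in the ICH+PTE libraries. How far any of these bears on the differences below was not tested.

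After haemorrhage, brain of PTE-treated mice held less RNA of microglia, macrophages, antigen presentation, lysosomes, cell division and the ribosome than that of untreated mice. It held more RNA of the pan-neuronal and cortical neuron lists, of sterol synthesis and of the mitochondrial genome. The striatal projection neuron list held no gene called higher. limma called 3648 genes higher, 24.6% of those tested, and 4463 lower, 30.1%, at an adjusted p under 0.05. Of these, 974 were higher and 1739 lower by at least 2-fold. The balance depends on how the libraries are scaled. With haemoglobin and mitochondrially encoded genes left out of each library's total, 5619 genes were higher and 2975 lower, so that 65.4% of calls were higher in place of 45%, and the median log2 difference of all tested genes was 0.206 in place of -0.039. A log2 difference below is the difference of mean log2(FPKM + 0.5), ICH+PTE minus ICH, with its standard error. It understates the change of genes near 0.5 FPKM, and each adjusted p comes from limma. Every ICH+PTE library lay below every ICH library in 5259 tested genes (35.5%) and above in 4476 (30.2%). Pearson's r of log2(FPKM + 0.5) between libraries was 0.960 to 0.975 within ICH+PTE, 0.980 to 0.985 within ICH and 0.797 to 0.911 between the groups.

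**Figure D1:**
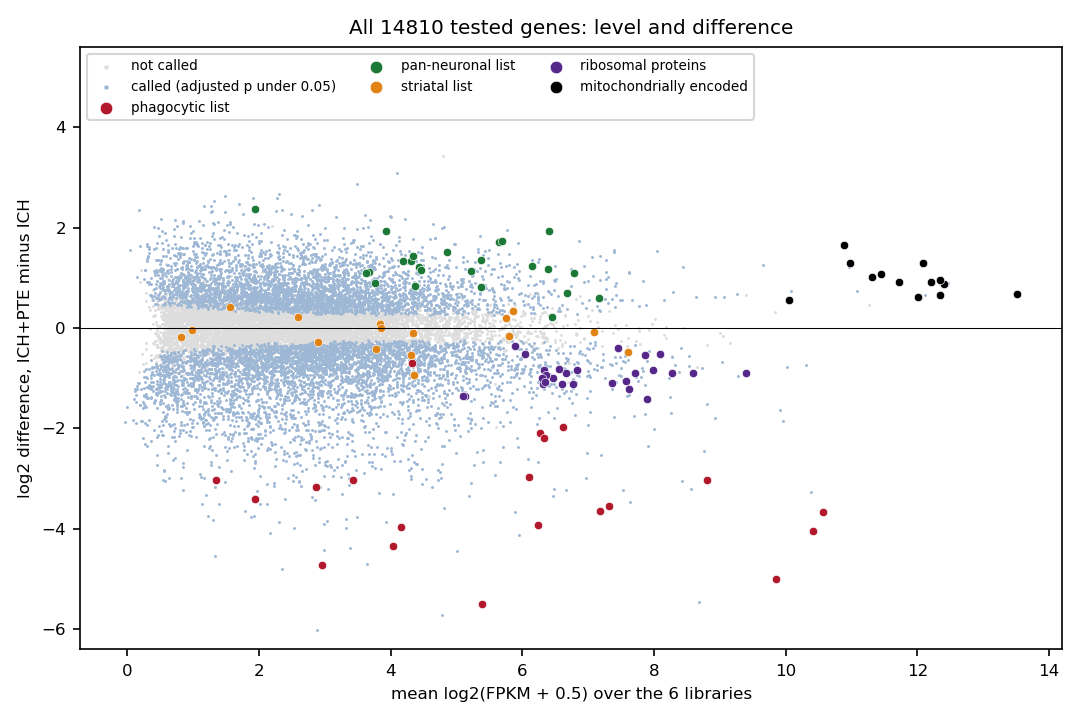
Log2 difference (ICH+PTE minus ICH) against mean log2(FPKM + 0.5) over the 6 libraries, 1 point per tested gene, with members of selected lists in colour. The 20 phagocytic genes lie between -5.50 and -0.70 and the 27 ribosomal protein genes between -1.42 and -0.36, while the 13 mitochondrially encoded genes lie between 0.55 and 1.65.

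**Figure D2:**
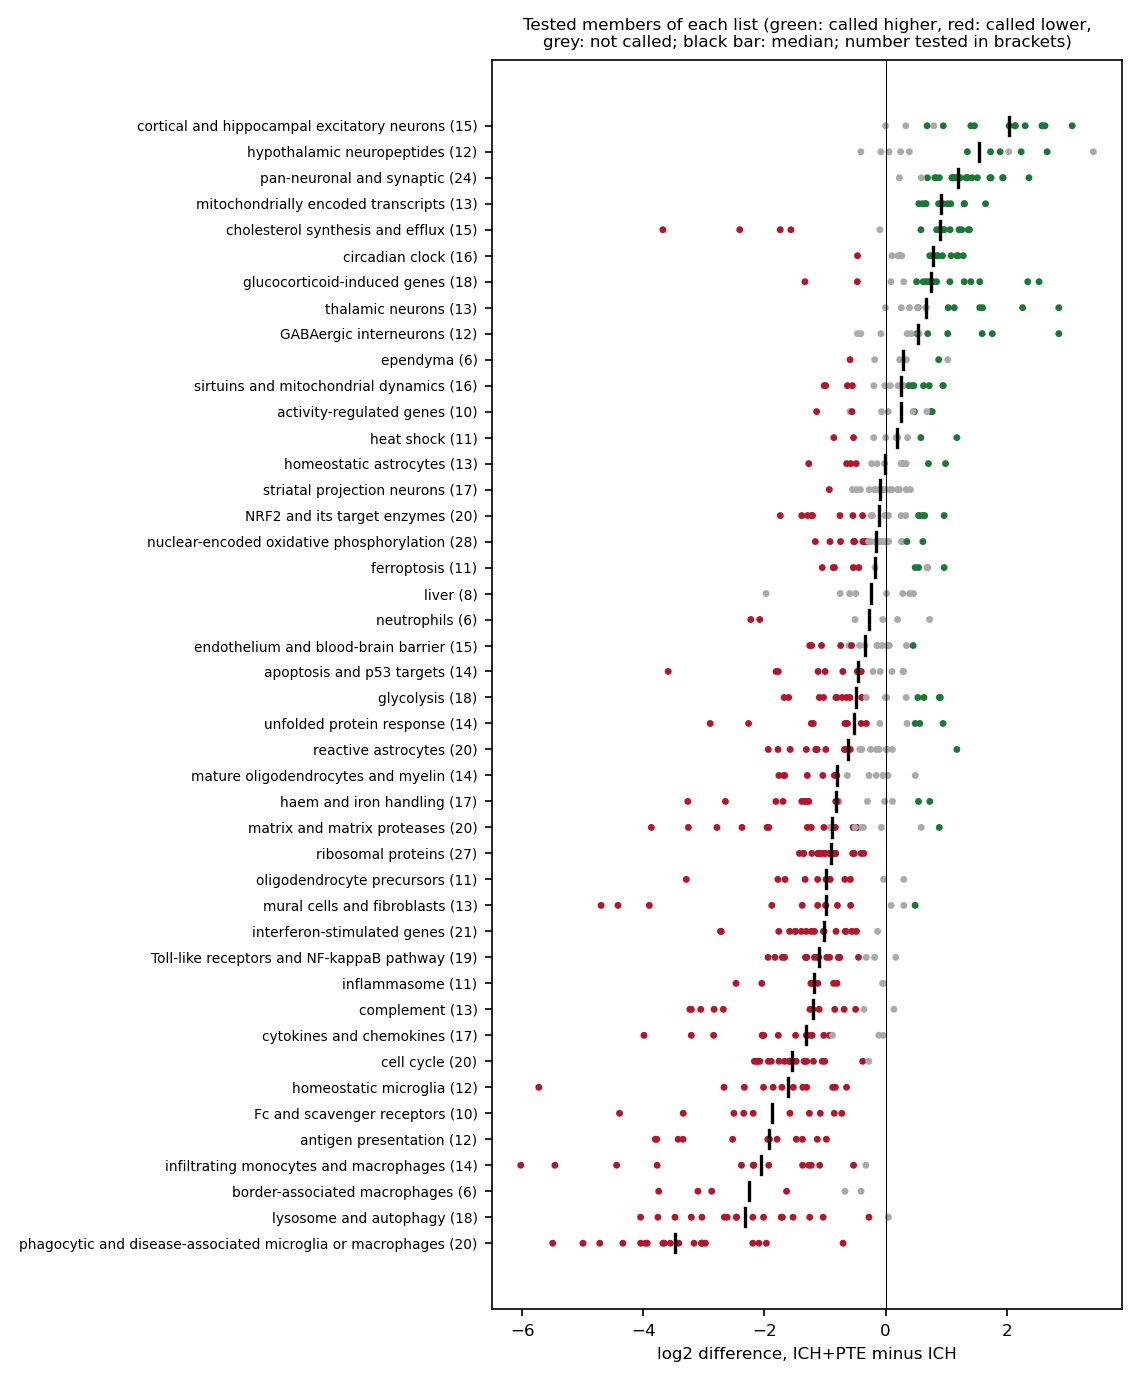
Log2 difference (ICH+PTE minus ICH) of every tested member of the gene lists, 1 point per gene, with the median of each list. Lists of phagocytes, lysosome and antigen presentation lie left of 0, and those of cortical and pan-neuronal genes lie right of 0.

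Among the 12 largest falls were 10 genes known from phagocytes or lipid handling, namely Apoc2, Cd36, Cd5l, Clec7a, Fcrls, Gpnmb, Lyz2, Plin2, Spp1 and Wfdc17, and 2 collagen genes, Col1a1 and Col3a1. The 12 largest rises held Calb2, Doc2a, Gabbr2, Gabrb2, Ngb, Oxt, Rasgrf2, Slc17a7 and Slc30a3, all known from neurons, and Fabp6, Sidt1 and Zbtb16. Cd5l, a scavenger receptor family protein secreted by macrophages, was at 0.0431, 0.948 and 0.458 FPKM in the ICH+PTE libraries, against 49.4, 72.2 and 56.5 FPKM in the ICH libraries (-6.02 ± 0.33, adjusted p = 5.64e-05). It passed the filter through the ICH group alone. Plin2, which coats lipid droplets, was at 7.79, 23.96 and 15.3 FPKM in the ICH+PTE libraries, against 209, 298 and 269 FPKM in the ICH libraries, and at 4.56, 8.52 and 4.68 FPKM in sham (-4.12 ± 0.35, adjusted p = 0.000129). Treated and untreated mice did not overlap for either gene.

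Genes of phagocytes were lower in PTE-treated brain throughout the list. All 20 genes listed for phagocytic microglia and macrophages, including disease-associated ones, were tested and all 20 were called lower, with a median log2 difference of -3.48 beside -0.039 for all tested genes. 2 of the 20, Itgax and Igf1, passed the filter through ICH alone. Spp1, the secreted phosphoprotein osteopontin, was at 68.2, 307 and 207 FPKM in the ICH+PTE libraries, against 4510.5, 6272 and 5015 FPKM in the ICH libraries, and at 32.6, 89.4 and 35.8 FPKM in sham (-4.99 ± 0.48, adjusted p = 0.0002). The lowest ICH library held many times the Spp1 of the highest ICH+PTE library, and the ICH+PTE values overlapped sham. Gpnmb, a transmembrane glycoprotein of lipid-laden macrophages, was at 2.31, 10.3 and 7.39 FPKM in the ICH+PTE libraries, against 233, 323 and 291 FPKM in the ICH libraries (-5.50 ± 0.44, adjusted p = 0.000108). Trem2, the lipid-sensing receptor of microglia, was at 2.04, 6.85 and 4.41 FPKM in the ICH+PTE libraries, against 63.9, 74.8 and 70.9 FPKM in the ICH libraries (-3.96 ± 0.33, adjusted p = 0.000124). The 2 groups were apart for both genes. Apoe, the lipid carrier of astrocytes and activated microglia, was at 429, 476 and 367 FPKM in the ICH+PTE libraries, against 5092, 5742 and 5362 FPKM in the ICH libraries, and at 792, 639 and 486 FPKM in sham (-3.68 ± 0.16, adjusted p = 4.43e-05). Axl, a receptor for dying cells and the member that fell least, was at 13.7, 17.8 and 14.2 FPKM in the ICH+PTE libraries, against 22.1, 24.99 and 28.03 FPKM in the ICH libraries (-0.70 ± 0.14, adjusted p = 0.00356).

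The promoter of Spp1 is shown because this gene was among the 12 largest falls and is the only one of the 16 phagocytic genes matched in the RefSeq promoter table with the PU.1 motif GAGGAAGT, read on both strands. PU.1 is the lineage factor of myeloid cells. The motif stands in 2.44% of all 32851 RefSeq promoters (build GRCm38.p6), searched upstream of the start. Counted by gene the share is 2.79%, and 0 of 7 matched homeostatic microglia genes have it. The match describes letters only. Capitals mark the motif in chr5:104434938-104435065, plus strand.
Spp1: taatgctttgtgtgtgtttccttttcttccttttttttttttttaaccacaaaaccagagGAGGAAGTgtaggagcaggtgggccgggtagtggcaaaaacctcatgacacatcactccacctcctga

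Homeostatic microglia genes were lower as well. All 12 listed genes were called lower, with a median of -1.62. P2ry12, the ADP receptor of resting microglia, was at 6.89, 10.3 and 9.88 FPKM in the ICH+PTE libraries, against 16.8, 17.2 and 16.1 FPKM in the ICH libraries, and at 13.5, 15.7 and 12.5 FPKM in sham (-0.87 ± 0.15, adjusted p = 0.00213). Tmem119, a microglial surface protein, was at 4.72, 10.7 and 8.802 FPKM in the ICH+PTE libraries, against 41.2, 57.1 and 57.3 FPKM in the ICH libraries (-2.67 ± 0.27, adjusted p = 0.000238). Fcrls, an Fc receptor-like scavenger protein of microglia, was at 1.09, 5.97 and 4.78 FPKM in the ICH+PTE libraries, against 178, 233 and 192 FPKM in the ICH libraries, and at 22.4, 27.6 and 18.2 FPKM in sham (-5.72 ± 0.46, adjusted p = 0.000117). Treated and untreated mice did not overlap for any of these 3 genes, and treated mice lay below sham in all 3. Sall1, a transcription factor of microglia, had the smallest fall (-0.64 ± 0.21, adjusted p = 0.0322), a call lost without ICH 1, ICH 2 or ICH 3 (adjusted p = 0.0575, 0.092 and 0.0805). Within the treated group, ICH+PTE 1 had the lowest and ICH+PTE 2 the highest value for 12 of 12 genes.

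Blood-derived phagocytes followed the same direction in the lists. Of 14 genes of infiltrating monocytes and macrophages 13 were called lower (median -2.05), 4 of them having passed the filter through ICH alone. Lyz2, the lysozyme of myeloid cells, was at 30.9, 100.3 and 74.5 FPKM in the ICH+PTE libraries, against 2432, 3086 and 2685 FPKM in the ICH libraries, and at 67.3, 50.4 and 35.7 FPKM in sham (-5.46 ± 0.38, adjusted p = 7.74e-05). Arg1, the arginase of tissue-repair macrophages, was at 21.5, 34.4 and 24.7 FPKM in the ICH+PTE libraries, against 167, 165 and 97.3 FPKM in the ICH libraries, and at 0.326, 1.13 and 1.14 FPKM in sham (-2.38 ± 0.24, adjusted p = 0.000243). Treated mice stayed above sham for Arg1. Ccr2, the chemokine receptor that draws monocytes into tissue, was at 0.52, 1.08 and 1.14 FPKM in the ICH+PTE libraries, against 1.81, 3.46 and 3.204 FPKM in the ICH libraries (-1.23 ± 0.27, adjusted p = 0.00574). Chil3, a chitinase-like protein of activated macrophages, was the member not called, at 8.99, 4.65 and 4.27 FPKM in the ICH+PTE libraries, against 12.3, 4.64 and 6.45 FPKM in the ICH libraries (-0.33 ± 0.36, adjusted p = 0.473). Of 9 border-associated macrophage genes 6 were tested and 4 called lower (median -2.25). Of these Folr2 passed the filter through ICH alone, and the median was -0.671 when every gene above 0 in any library was tested. Pf4, a platelet and macrophage chemokine, was at 12.03, 16.8 and 8.93 FPKM in the ICH+PTE libraries, against 93.9, 120.015 and 112 FPKM in the ICH libraries (-3.10 ± 0.21, adjusted p = 7.7e-05).

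Other leukocytes left few transcripts to test. Of 14 neutrophil genes 6 were tested and 2 called lower (median -0.28), beside 30.1% of all tested genes. S100a9, a calcium-binding protein that neutrophils carry in large amounts, was at 15.8, 16.9 and 7.89 FPKM in the ICH+PTE libraries, against 7.63, 11.4 and 15.7 FPKM in the ICH libraries, and at 0.46, 0.152 and 0.811 FPKM in sham (0.20 ± 0.33, adjusted p = 0.628). The treated and untreated values overlapped, and both groups lay above sham. Csf3r, the receptor for the neutrophil growth factor, was called lower (-2.08 ± 0.21, adjusted p = 0.000216). Of 14 lymphocyte genes 3 were tested and 1, Cd79b of B cells, was called lower (-1.54 ± 0.22, adjusted p = 0.00092). Cd79b passed the filter through ICH alone, so this call is partly set by the filter. In 10 of the 14 every ICH+PTE library lay below every ICH library, beside 35.5% of all tested genes. Most of the 14 were below the filter, so the shares are not of like genes. When every gene above 0 in any library was tested, 5 of the lymphocyte list were called lower.

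Inflammatory messengers were lower in most members. Of 21 cytokine and chemokine genes 17 were tested, 14 were called lower and limma called 0 higher (0 at an unadjusted p under 0.05), with a median of -1.31, and 3 of the 14, Il1a, Osm and Tnf, passed the filter through ICH alone. Ccl4, a chemokine of activated microglia, was at 0, 2.096 and 1.86 FPKM in the ICH+PTE libraries, against 18.2, 23.2 and 27.1 FPKM in the ICH libraries (-3.99 ± 0.56, adjusted p = 0.000864), where 0 is the value listed. Ccl2, which attracts monocytes, was at 4.83, 13.3 and 4.75 FPKM in the ICH+PTE libraries, against 19.1, 21.1 and 19.5 FPKM in the ICH libraries, and at 0.324, 0.716 and 0.68 FPKM in sham (-1.49 ± 0.34, adjusted p = 0.00697). Il1b, the secreted interleukin-1 beta, was at 0.819, 1.09 and 0.623 FPKM in the ICH+PTE libraries, against 1.61, 3.83 and 2.86 FPKM in the ICH libraries (-1.23 ± 0.27, adjusted p = 0.0061), and Tnf at 0.222, 0.48 and 0.417 FPKM in the ICH+PTE libraries, against 1.06, 2.30015 and 1.67 FPKM in the ICH libraries (-1.29 ± 0.25, adjusted p = 0.00348). Of 19 tested Toll-like receptor and NF-kappaB genes (20 listed) 16 were lower (median -1.103), of which Tlr6 passed the filter through ICH alone. Tlr2, the receptor for bacterial lipoproteins and damage signals, was at 2.06, 5.302 and 3.96 FPKM in the ICH+PTE libraries, against 13.0004, 15.8 and 16.5 FPKM in the ICH libraries (-1.94 ± 0.27, adjusted p = 0.000837). Rela, the p65 subunit of NF-kappaB, was at 10.4, 10.3 and 7.69 FPKM in the ICH+PTE libraries, against 15.4, 16.9 and 16.9 FPKM in the ICH libraries (-0.77 ± 0.14, adjusted p = 0.00216). Of 11 tested inflammasome genes (12 listed) 9 were lower (median -1.18), of which Nlrp1b and Nlrp3 passed the filter through ICH alone. Pycard, the ASC adaptor that assembles the inflammasome, was at 1.27, 3.24 and 1.87 FPKM in the ICH+PTE libraries, against 11.3, 15.1 and 13.9 FPKM in the ICH libraries (-2.47 ± 0.26, adjusted p = 0.000255). Casp1, its protease, was lower (-1.22 ± 0.18, adjusted p = 0.000975). Nlrp3, the sensor, was also lower (-0.86 ± 0.16, adjusted p = 0.00268).

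Innate and adaptive recognition genes followed. Of 13 tested complement genes (14 listed) 11 were lower (median -1.203). C1qb, a chain of the initiating complex of the classical pathway, was at 90.6, 183 and 113 FPKM in the ICH+PTE libraries, against 1072, 1194 and 1163 FPKM in the ICH libraries, and at 74.3, 93.2 and 66.9 FPKM in sham (-3.21 ± 0.24, adjusted p = 9.2e-05). All 12 tested antigen presentation genes (13 listed) were lower, with a median of -1.93. H2-Ab1, a class II chain, was at 1.36, 3.19 and 2.32 FPKM in the ICH+PTE libraries, against 25.3, 54.8 and 36.4 FPKM in the ICH libraries (-3.80 ± 0.32, adjusted p = 0.000124), and Cd74, the class II chaperone, at 8.54, 15.2 and 10.2 FPKM in the ICH+PTE libraries, against 75.4, 170.5 and 121 FPKM in the ICH libraries (-3.34 ± 0.30, adjusted p = 0.000164). Treated and untreated mice did not overlap for either. B2m, the light chain of class I, was at 254, 308 and 227 FPKM in the ICH+PTE libraries, against 773, 977 and 979 FPKM in the ICH libraries (-1.79 ± 0.16, adjusted p = 0.000164). All 10 tested Fc and scavenger receptor genes (12 listed) were lower (median -1.88). Cd36, a receptor for oxidised lipids and red cell remnants, was at 0.833, 3.02 and 2.05 FPKM in the ICH+PTE libraries, against 34.7, 57.3 and 53.7 FPKM in the ICH libraries (-4.39 ± 0.34, adjusted p = 0.000108). Of 21 interferon-stimulated genes 17 were lower (median -1.02), of which Mx1 passed the filter through ICH alone. Bst2, tetherin, which holds budding viruses at the cell surface, was at 13.5, 18.9 and 11.7 FPKM in the ICH+PTE libraries, against 75.9, 104 and 119.9 FPKM in the ICH libraries (-2.73 ± 0.21, adjusted p = 0.000108).

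Lysosome genes were lower together with those of phagocytes, and the lists share genes. Of 18 listed genes 17 were lower (median -2.33), of which Atp6v0d2 passed the filter through ICH alone. Ctsd, a lysosomal aspartic protease, was at 219, 479 and 361 FPKM in the ICH+PTE libraries, against 4864, 5963 and 5885 FPKM in the ICH libraries, and at 324, 441 and 262 FPKM in sham (-4.04 ± 0.27, adjusted p = 7.7e-05). Sqstm1, the p62 autophagy receptor, was not called (0.05 ± 0.12, adjusted p = 0.759), though it was called higher under quantile normalization (0.39, adjusted p = 0.0154) and with the rescaling (0.32, adjusted p = 0.0418).

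Handling of haem and iron was lower in most members and not in all. Of 17 tested genes (19 listed) 11 were lower and 2, Hpx and Tfrc, higher (median -0.82), with 1 higher without ICH 1, ICH 2, ICH 3 or ICH+PTE 3. Hmox1, the inducible haem oxygenase that opens the haem ring, was at 142, 254 and 183 FPKM in the ICH+PTE libraries, against 432, 485 and 560.1 FPKM in the ICH libraries, and at 4.02, 23.3 and 16.4 FPKM in sham (-1.38 ± 0.21, adjusted p = 0.0012). Every treated value was below every untreated value and far above sham. Ftl1, the ferritin light chain, was at 313, 618 and 417 FPKM in the ICH+PTE libraries, against 3554, 4364 and 4629.8 FPKM in the ICH libraries (-3.26 ± 0.25, adjusted p = 0.000107). Fth1, the ferritin heavy chain, was at 714, 993 and 715 FPKM in the ICH+PTE libraries, against 1377, 1413 and 1299 FPKM in the ICH libraries (-0.77 ± 0.17, adjusted p = 0.00578), and under quantile normalization the difference was -0.16 (adjusted p = 0.344). Lcn2, the siderophore-binding lipocalin-2, was at 100.2, 103 and 80.9 FPKM in the ICH+PTE libraries, against 103, 91.7 and 69.8 FPKM in the ICH libraries, and at 0.958, 3.02 and 7.07 FPKM in sham (0.11 ± 0.17, adjusted p = 0.584). Its treated and untreated values overlapped, and under quantile normalization it was called higher (0.46, adjusted p = 0.0348). The 95% interval of the difference without that normalization was -0.27 to 0.50.

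Of 20 genes of NRF2 and its target enzymes 5 were higher and 8 lower, beside 24.6% and 30.1% of all tested genes (median -0.11, and 0.159 when haemoglobin and mitochondrially encoded genes were left out of the scaling). Nfe2l2, which encodes NRF2, was at 7.13, 13.6 and 11.05 FPKM in the ICH+PTE libraries, against 22.3, 29.7 and 25.6 FPKM in the ICH libraries (-1.29 ± 0.22, adjusted p = 0.0019). Slc7a11, the cystine importer, was at 6.74, 4.55 and 5.14 FPKM in the ICH+PTE libraries, against 3.03, 2.26 and 2.32 FPKM in the ICH libraries (0.97 ± 0.17, adjusted p = 0.00225). Gpx1, a glutathione peroxidase, was at 48.6, 77.8 and 57.9 FPKM in the ICH+PTE libraries, against 188, 215 and 204 FPKM in the ICH libraries (-1.74 ± 0.17, adjusted p = 0.000208). Nqo1, a quinone reductase and common NRF2 readout, was not called (0.05 ± 0.18, adjusted p = 0.836). Of 11 tested ferroptosis genes (12 listed) 4 were higher and 5 lower (median -0.17). Without ICH 1, 2 were higher, and without ICH 3, 3 were lower. Gpx4, the peroxidase that guards membrane lipids, was lower (-0.84 ± 0.12, adjusted p = 0.000922).

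**Figure D3:**
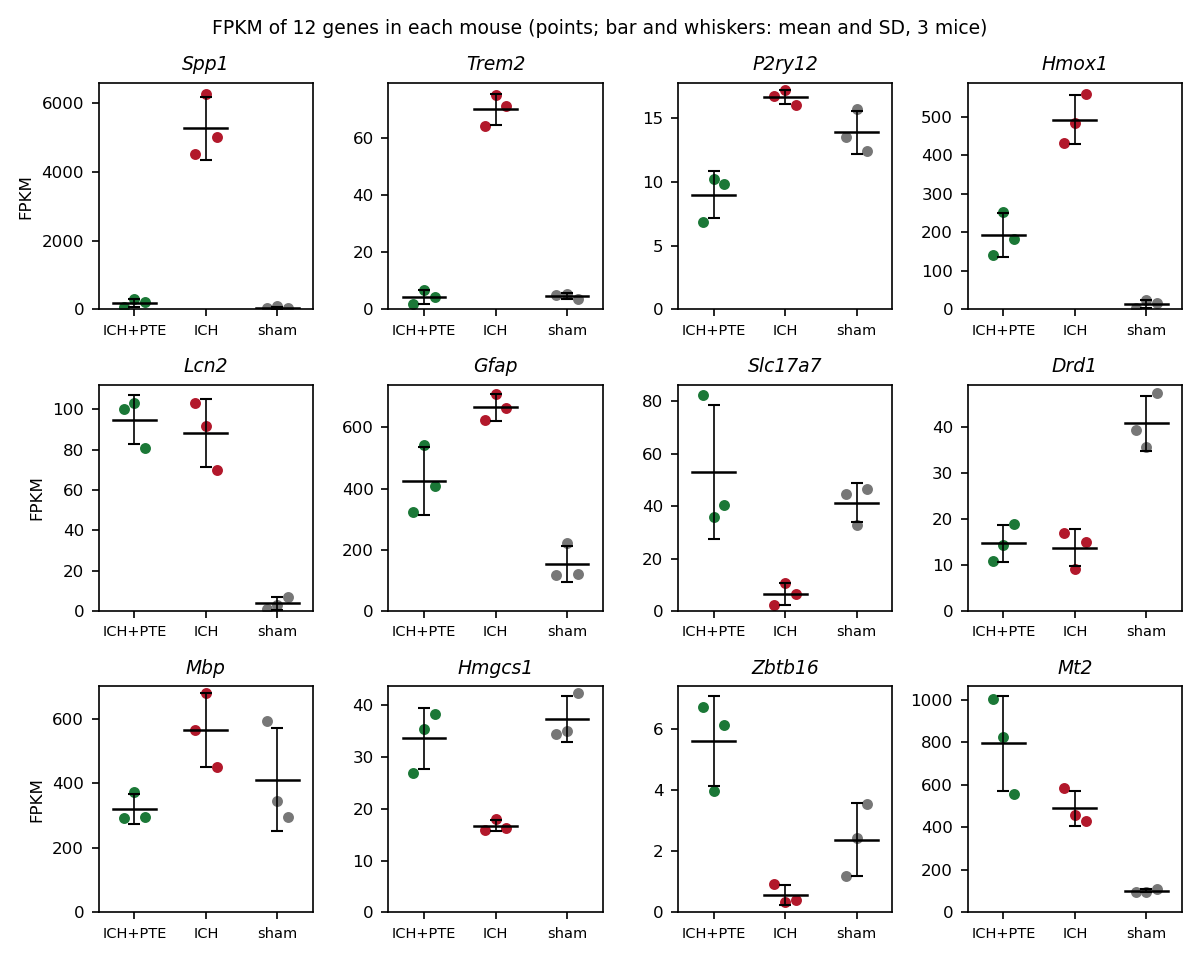
FPKM of 12 genes in each of the 9 libraries, 1 point per mouse with the mean and SD of 3, ICH+PTE left of ICH and sham. Spp1, Trem2 and Hmox1 lie below the ICH level in ICH+PTE, Slc17a7 and Hmgcs1 above it, and Lcn2 and Drd1 overlap it.

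Reactive astrocyte genes were above sham in PTE-treated brain, and part of them were lower than in untreated haemorrhage. Every ICH+PTE library lay above every sham library for 20 of 20 listed genes, beside 18.6% of all tested genes. Of the 20, 11 were lower and 1 higher in treated mice (median -0.63). Vim, an intermediate filament protein, was at 63.1, 123 and 94.4 FPKM in the ICH+PTE libraries, against 275, 329.6 and 327 FPKM in the ICH libraries, and at 20.6, 41.4 and 19.4 FPKM in sham (-1.77 ± 0.23, adjusted p = 0.000548). Serpina3n, a secreted protease inhibitor, was at 454, 539.7 and 488 FPKM in the ICH+PTE libraries, against 549.8, 535 and 504 FPKM in the ICH libraries, and at 26.3, 58.5 and 29.02 FPKM in sham (-0.10 ± 0.12, adjusted p = 0.497), but was called higher under quantile normalization (0.72, adjusted p = 0.0014). Gfap, the astrocyte filament, was at 324, 543 and 409 FPKM in the ICH+PTE libraries, against 623, 709 and 663 FPKM in the ICH libraries (-0.67 ± 0.19, adjusted p = 0.0179), a call lost without ICH 2, ICH 3 or ICH+PTE 3 (adjusted p = 0.0626, 0.0534 and 0.054) and turned to 0.11 under quantile normalization. Of 13 homeostatic astrocyte genes 3 were higher and 4 lower, beside 24.6% and 30.1% of all tested genes. Their median was -0.02, and 0.442 under quantile normalization, where 7 were higher. Aqp4, the water channel of astrocyte endfeet, was at 15.9, 24.04 and 27.5 FPKM in the ICH+PTE libraries, against 49.9, 60.97 and 50.4 FPKM in the ICH libraries (-1.27 ± 0.20, adjusted p = 0.00124). Gjb6, a gap junction connexin, was at 32.5, 24.5 and 26.6 FPKM in the ICH+PTE libraries, against 16.2, 13.1 and 12.02 FPKM in the ICH libraries (0.99 ± 0.15, adjusted p = 0.00111).

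Mural, fibroblast and matrix genes were mostly lower. Of 15 endothelial genes 5 were lower, 1 was higher and 9 were not called (median -0.34), beside 30.1% of all tested genes called lower. Cldn5, the tight junction claudin of the blood-brain barrier, was at 31.3, 37.4 and 27.5 FPKM in the ICH+PTE libraries, against 73.3, 75.8 and 75.3 FPKM in the ICH libraries (-1.22 ± 0.12, adjusted p = 0.000237). Of 13 mural cell and fibroblast genes 10 were lower and 1 higher (median -0.99). Col1a1, a fibrillar collagen of scar-forming fibroblasts, was at 1.71, 2.17 and 1.98 FPKM in the ICH+PTE libraries, against 45.6, 56.8 and 95.98 FPKM in the ICH libraries (-4.70 ± 0.25, adjusted p = 5.44e-05). Of 20 matrix and protease genes 13 were lower and 1 higher (median -0.89). Mmp12, a macrophage elastase, was at 0.141, 2.35 and 0.669 FPKM in the ICH+PTE libraries, against 14.4, 23.3 and 18.1 FPKM in the ICH libraries (-3.87 ± 0.47, adjusted p = 0.000482). The single higher members of these lists, Mfsd2a, Myh11 and Adamts1, each lost their call without ICH 1 (adjusted p = 0.0864, 0.112 and 0.0822), and under several other settings.

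Cell division genes were lower. Of 20, 19 were called lower (median -1.55). Rrm2, which makes deoxynucleotides for replication, was at 1.06, 4.05 and 3.04 FPKM in the ICH+PTE libraries, against 10.2, 12.8 and 15.5 FPKM in the ICH libraries (-2.17 ± 0.36, adjusted p = 0.00173). Mcm3, a subunit of the replicative helicase, was at 1.45, 4.605 and 3.08 FPKM in the ICH+PTE libraries, against 9.47, 12.5 and 13.4 FPKM in the ICH libraries (-1.89 ± 0.32, adjusted p = 0.00184). Ribosomal protein genes were lower in all 27 (median -0.904), with ICH+PTE 2 the highest treated library in each. Under quantile normalization Rplp1 stood at 0.07, and Rps15 (adjusted p = 0.255) and Rps24 (adjusted p = 0.444) were not called. The Rps24 call was also lost with the rescaling (adjusted p = 0.553) and without ICH 1, ICH 2, ICH 3, ICH+PTE 1 or ICH+PTE 3. Rplp0, of the ribosomal stalk, was at 138, 179 and 124 FPKM in the ICH+PTE libraries, against 346, 419 and 409 FPKM in the ICH libraries (-1.42 ± 0.16, adjusted p = 0.000342). Of 14 unfolded protein response genes 9 were lower, of which Trib3 passed the filter through ICH alone, and 3 higher (median -0.52), with 4 lower without ICH 2 and 5 without ICH 3. Atf3, a stress-induced transcription factor, was at 2.71, 6.44 and 3.34 FPKM in the ICH+PTE libraries, against 25.8, 38.04 and 34.3 FPKM in the ICH libraries (-2.90 ± 0.28, adjusted p = 0.000199). Of 11 heat shock genes 2 were higher and 2 lower (median 0.18), beside 24.6% and 30.1% of all tested genes. Without ICH+PTE 1, 4 of the 11 were higher, and without ICH 2, ICH 3 or ICH+PTE 3, 1 was lower. Of 14 apoptosis and p53 genes 8 were lower (median -0.46). Bax, a pore-forming death effector, was at 13.8, 17.005 and 12.2 FPKM in the ICH+PTE libraries, against 44.9, 50.6 and 53.9 FPKM in the ICH libraries (-1.77 ± 0.14, adjusted p = 0.000108).

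The oligodendrocyte lineage was lower in part. Of 14 myelin genes 8 were lower (median -0.81), and 5 under quantile normalization. Mobp, a myelin protein, was not called (-0.04 ± 0.24, adjusted p = 0.9). Of 11 precursor genes 9 were lower (median -0.98). Gpr17, a receptor of cells about to myelinate, was at 2.03, 4.45 and 6.82 FPKM in the ICH+PTE libraries, against 40.4, 52.2 and 39.2 FPKM in the ICH libraries, and at 16.5, 18.7 and 15.6 FPKM in sham (-3.29 ± 0.34, adjusted p = 0.000253). Pdgfra, the growth factor receptor of precursors, was not called (0.30 ± 0.13, adjusted p = 0.0752). It was called higher under quantile normalization (0.37, adjusted p = 0.0308) and with the rescaling (0.56, adjusted p = 0.00948), among other settings.

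Neuronal genes were higher in PTE-treated brain in the pan-neuronal and cortical lists. Of 24 pan-neuronal and synaptic genes 22 were higher (median 1.195). Snap25 was at 141, 91.1 and 97.2 FPKM in the ICH+PTE libraries, against 57.2, 42.2 and 39.3 FPKM in the ICH libraries, and at 109.7, 92.4 and 107 FPKM in sham (1.23 ± 0.20, adjusted p = 0.00157). Every treated value lay above every untreated one. Of 15 tested cortical and hippocampal excitatory genes (16 listed) 12 were higher (median 2.04), and 2 of the tested genes passed the filter through ICH+PTE alone. Slc17a7, the glutamate transporter VGLUT1 of cortical synapses, was at 82.4, 36.05 and 40.5 FPKM in the ICH+PTE libraries, against 2.08, 10.7 and 6.59 FPKM in the ICH libraries, and at 44.8, 32.7 and 46.6 FPKM in sham (3.08 ± 0.52, adjusted p = 0.00181). Slc30a3, the zinc transporter of cortical synaptic vesicles, was at 13.9, 5.02 and 3.78 FPKM in the ICH+PTE libraries, against 0.246, 1.04 and 0.734 FPKM in the ICH libraries (2.63 ± 0.45, adjusted p = 0.00193). Treated values overlapped sham for 10 of the 15 genes, beside 61.0% of all tested genes.

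Striatal projection neuron genes showed no called rise. Of 17 genes 0 were called higher by limma (0 at an unadjusted p under 0.05) and 1, Adora2a, lower, with a median of -0.09. That call ended without ICH 1 (adjusted p = 0.0593) or ICH 3 (adjusted p = 0.0551), and without ICH 2, 4 genes were called lower. Without both ICH 1 and ICH+PTE 1, 2 genes were called higher. In 16 of 17, every ICH+PTE library lay below every sham library, beside 20.4% of all tested genes. Drd1, the dopamine receptor of the direct pathway, was at 10.8, 14.4 and 18.9 FPKM in the ICH+PTE libraries, against 16.9, 9.21 and 14.99 FPKM in the ICH libraries, and at 39.4, 35.6 and 47.3 FPKM in sham (0.11 ± 0.26, adjusted p = 0.743). Ppp1r1b, the dopamine signalling protein DARPP-32, was at 145, 119 and 131 FPKM in the ICH+PTE libraries, against 191, 91.8 and 155 FPKM in the ICH libraries, and at 369, 238 and 331 FPKM in sham (-0.08 ± 0.25, adjusted p = 0.787). Treated and untreated values overlapped for both, and both groups were below sham. The difference between the cortical and the striatal list was not tested.

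Hypothalamic transcripts varied between libraries of 1 group, as given for Pmch. Of 13 tested thalamic genes (14 listed) 7 were higher (median 0.67). Slc17a6, the transporter VGLUT2 of subcortical neurons, was at 8.26, 11.1 and 17.6 FPKM in the ICH+PTE libraries, against 2.52, 1.798 and 1.901 FPKM in the ICH libraries, and at 4.703, 5.98 and 3.46 FPKM in sham (2.26 ± 0.25, adjusted p = 0.000321). Of 12 tested hypothalamic neuropeptide genes (16 listed) 5 were higher (median 1.54), and 3 without ICH+PTE 2 or without ICH+PTE 3. Oxt, oxytocin, was at 10.5, 19.8 and 8.22 FPKM in the ICH+PTE libraries, against 2.07, 0.171 and 3.92 FPKM in the ICH libraries (2.67 ± 0.63, adjusted p = 0.00841). Of 12 tested interneuron genes (13 listed) 6 were higher (median 0.54), of which Vip passed the filter through ICH+PTE alone, and without ICH 2 or ICH 3, 1 was lower. Calb2, the calcium buffer calretinin, was at 27.9, 25.6 and 37.1 FPKM in the ICH+PTE libraries, against 3.52, 2.805 and 4.97 FPKM in the ICH libraries, and at 24.1, 25.1 and 16.1 FPKM in sham (2.86 ± 0.21, adjusted p = 9.07e-05). Calb2 is counted in both the interneuron and the thalamic list and had the largest rise of each. The interneuron genes Pvalb (-0.46, adjusted p = 0.282) and Sst (-0.41, adjusted p = 0.0803) leaned lower and were not called. Of 10 tested activity-regulated genes (15 listed) 3 were higher and 2 lower (median 0.25), with 5 higher without ICH+PTE 2. Among all tested genes 24.6% were higher and 30.1% lower. Egr1, an immediate early factor, was at 17.2, 12.99 and 14.2 FPKM in the ICH+PTE libraries, against 8.46, 8.19 and 9.03 FPKM in the ICH libraries, and at 44.1, 48.9 and 30.1 FPKM in sham (0.75 ± 0.13, adjusted p = 0.00174). Of 6 tested ependymal genes (9 listed) 1, Ak7, was higher and 1, Foxj1, lower (median 0.29), beside 24.6% and 30.1% of all tested genes. Without ICH 1, ICH 3 or ICH+PTE 3, 0 were higher by limma, beside 2 at an unadjusted p under 0.05 in all 6 libraries, and 2 were higher without ICH 2. How far the piece of brain taken bears on these neuronal differences was not tested.

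Sterol genes split by role. Of 15 genes 10 were higher and 4 lower, beside 24.6% and 30.1% of all tested genes (median 0.89, mean 0.07). The higher genes make sterol, take it up or regulate these steps, and the 4 lower ones, Abca1, Abcg1, Apoe and Nr1h3, carry out or control its efflux. Abcg1 and Nr1h3 were named after their values were seen. Hmgcs1, an early enzyme of the pathway, was at 26.95, 35.5 and 38.4 FPKM in the ICH+PTE libraries, against 15.99, 18.01 and 16.3 FPKM in the ICH libraries, and at 34.5, 35.02 and 42.4 FPKM in sham (0.97 ± 0.14, adjusted p = 0.001). Abca1, which exports cholesterol to lipoprotein, was at 8.95, 8.27 and 10.2 FPKM in the ICH+PTE libraries, against 44.7, 53.9 and 53.3 FPKM in the ICH libraries, and at 6.03, 8.94 and 7.13 FPKM in sham (-2.41 ± 0.12, adjusted p = 4.73e-05). Treated and untreated mice did not overlap for Hmgcs1 or Abca1.

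The Hmgcs1 promoter is printed because it was the 1 of 9 matched sterol genes with the sterol regulatory element TCACNCCAC, searched on both strands. The element stood in 1.05% of all RefSeq promoters and, counted by gene, in 1.22%. Capitals mark it in chr13:119690154-119690282, plus strand, GRCm38.p6.
Hmgcs1: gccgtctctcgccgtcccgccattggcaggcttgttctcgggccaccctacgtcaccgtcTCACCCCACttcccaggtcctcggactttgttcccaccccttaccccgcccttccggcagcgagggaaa

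Glucocorticoid-induced genes were higher in most members. Of 18, 14 were higher and 2 lower (median 0.76), with 9 higher and 1 lower without ICH 2, and 9 and 1 without ICH 3. Without ICH+PTE 3, 1 was lower, and 8 were higher when every gene above 0 in any library was tested. In 10 of 18 every treated library was above every ICH and every sham library, beside 5.01% of all tested genes. Zbtb16, the steroid-induced factor PLZF, was at 6.72, 3.95 and 6.12 FPKM in the ICH+PTE libraries, against 0.932, 0.352 and 0.398 FPKM in the ICH libraries, and at 1.17, 2.43 and 3.54 FPKM in sham (2.53 ± 0.26, adjusted p = 0.000237). It passed the filter through ICH+PTE alone. Fkbp5, a co-chaperone of the glucocorticoid receptor, was at 13.9, 9.56 and 10.5 FPKM in the ICH+PTE libraries, against 8.08, 5.11 and 5.27 FPKM in the ICH libraries, and at 3.28, 4.37 and 4.93 FPKM in sham (0.84 ± 0.20, adjusted p = 0.00845). Angptl4, a lipase inhibitor also induced by fatty acids and hypoxia, was lower (-1.33 ± 0.17, adjusted p = 0.000514). Mt2, a metallothionein, was at 1003, 824 and 559 FPKM in the ICH+PTE libraries, against 584, 457 and 429.6 FPKM in the ICH libraries (0.67 ± 0.23, adjusted p = 0.0371), a call lost without ICH 2, ICH 3, ICH+PTE 1 or ICH+PTE 2 (adjusted p = 0.106, 0.121, 0.104 and 0.0814).

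Clock genes were higher in 10 of 16 and lower in 1, Bhlhe41 (median 0.78), which was not called with the rescaling. Nr1d1, the repressor REV-ERB alpha, was at 31.5, 20.2 and 21.9 FPKM in the ICH+PTE libraries, against 12.5, 8.67 and 12.6 FPKM in the ICH libraries, and at 15.96, 17.7 and 21.1 FPKM in sham (1.08 ± 0.20, adjusted p = 0.00284). Hlf, a PAR bZIP factor under clock control, was at 25.3, 15.6 and 20.1 FPKM in the ICH+PTE libraries, against 9.901, 6.39 and 7.78 FPKM in the ICH libraries (1.28 ± 0.20, adjusted p = 0.00142). Tef, of the same family, was at 57.3, 44.3 and 46.4 FPKM in the ICH+PTE libraries, against 33.9, 20.7 and 28.4 FPKM in the ICH libraries (0.84 ± 0.19, adjusted p = 0.00604). Dbp, another of that family, was not called (0.11 ± 0.14, adjusted p = 0.549). The labels do not state the hour of day at which tissue was taken. The Tef promoter is shown as a called member with the canonical E-box CACGTG, which reads the same on both strands. The E-box stood in 5 of 14 matched clock genes. It stood in 6.02% of all RefSeq promoters and, counted by gene, in 6.86%. Capitals mark it in chr15:81802486-81802611, plus strand, GRCm38.p6.
Tef: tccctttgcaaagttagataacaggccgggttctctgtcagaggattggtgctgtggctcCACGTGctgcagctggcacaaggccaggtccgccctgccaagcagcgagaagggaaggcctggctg

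Mitochondrially encoded transcripts were higher in treated mice. All 13 were called higher (median 0.92), with 8 without ICH 2 and 8 without ICH 3. When every gene above 0 in any library was tested, 1 was called higher. In 10 of the 13 every treated library was above every ICH and every sham library, beside 5.01% of all tested genes. They made up 28.8%, 28.9% and 25.5% of summed FPKM in the ICH+PTE libraries, against 16.7%, 14.1% and 13.6% in the ICH libraries and 22.9%, 21.7% and 22.1% in sham. The difference of 12.9 percentage points had an exact two-sided permutation p of 0.1, the smallest that 3 against 3 allows. Of 28 nuclear genes of oxidative phosphorylation, 2 were higher and 11 lower, beside 24.6% and 30.1% of all tested genes (median -0.16, and 0.115 with the rescaling). Leaving out ICH 1, ICH 2, ICH 3 or ICH+PTE 3 left 7, 7, 6 and 7 lower, and without ICH 3, 1 was higher. Ndufs1, a core subunit of complex I, was higher (0.62 ± 0.11, adjusted p = 0.00224), and Ndufa2, an accessory subunit, lower (-1.16 ± 0.13, adjusted p = 0.000332).

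Of 18 glycolysis genes 4 were higher and 10 lower (median -0.49), with 7 higher under quantile normalization or with the rescaling. Among all tested genes 24.6% were higher and 30.1% lower. Hk2, the hexokinase of activated cells, was at 1.58, 2.498 and 1.65 FPKM in the ICH+PTE libraries, against 6.41, 7.58 and 7.302 FPKM in the ICH libraries (-1.67 ± 0.17, adjusted p = 0.000218), while Slc2a3, the neuronal glucose transporter, was at 16.04, 13.04 and 14.9 FPKM in the ICH+PTE libraries, against 8.43, 6.53 and 7.91 FPKM in the ICH libraries (0.90 ± 0.13, adjusted p = 0.000943). Of 16 sirtuin and mitochondrial dynamics genes 7 were higher and 4 lower (median 0.26), beside 24.6% and 30.1% of all tested genes. Ppargc1a, the coactivator PGC-1 alpha of mitochondrial biogenesis, was at 6.42, 4.17 and 6.38 FPKM in the ICH+PTE libraries, against 3.09, 2.39 and 2.47 FPKM in the ICH libraries (0.95 ± 0.18, adjusted p = 0.00329). Sirt2, a deacetylase rich in oligodendrocytes, was lower (-1.01 ± 0.11, adjusted p = 0.000328). Sirt1, a deacetylase often studied with stilbenoids, was not called (0.30 ± 0.13, adjusted p = 0.0806), except higher with the rescaling (0.55, adjusted p = 0.0109), under quantile normalization (0.36, adjusted p = 0.0452) and with all 9 libraries in the fit (adjusted p = 0.0443).

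Transcripts of the small intestine were present at low level. Fabp6, the bile acid binding protein of the ileum, was at 2.39, 1.03 and 3.27 FPKM in the ICH+PTE libraries and listed at 0 in all 3 ICH and all 3 sham libraries. It passed the filter through ICH+PTE alone and was called higher (adjusted p = 0.000735), so this call and its place among the 12 largest rises are partly set by the filter. No fold is given against a listed 0. Fabp6 is not a member of the list of 26 intestinal genes. Of the 26, 11 had every ICH+PTE library above every ICH library, and 9 of these 11 were above every sham library as well. Among all tested genes these shares were 30.2% and 5.01%, but 21 of the 26 were below the filter, so the shares are not of like genes. Examples picked after their values were seen were Fabp2, an enterocyte fatty acid binding protein, at 0.975, 1.02 and 1.68 FPKM in the ICH+PTE libraries, against 0, 0.122 and 0 FPKM in the ICH libraries, the goblet cell protein Zg16 at 0.5, 0.146 and 0.702 FPKM in the ICH+PTE libraries and listed at 0 elsewhere, and the antimicrobial lectin Reg3b at 0.765, 0.29 and 1.89 FPKM in the ICH+PTE libraries, against 0.0827, 0 and 0 FPKM in the ICH libraries. All of these levels were low, and 5 of the 26 genes were high enough to be tested. Among these 5 limma called 0 higher (0 at an unadjusted p under 0.05) and 1 lower, Lyz1. That call was lost without ICH 1, ICH 2, ICH+PTE 2 or ICH+PTE 3 (adjusted p = 0.0648, 0.0954, 0.0563 and 0.0748). When every gene above 0 in any library was tested, limma called 7 of the list higher and 0 lower. The list median was then 0.194 in place of -0.501. The summed FPKM of the list was 20.4, 18.2 and 32.0 in the ICH+PTE libraries, against 23.0, 26.5 and 23.1 in the ICH libraries, a difference of -0.643 (exact two-sided permutation test, p = 1, n = 3 each). Without its 3 members of highest mean, Apoa1, Fabp1 and Lgals4, which other tissues also express, the sum was 10.9, 7.64 and 13.3 in the ICH+PTE libraries, against 7.21, 8.08 and 5.66 in the ICH libraries, a difference of 3.63 (exact p = 0.2, where 0.1 is the smallest that 3 against 3 can give).

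**Figure D4:**
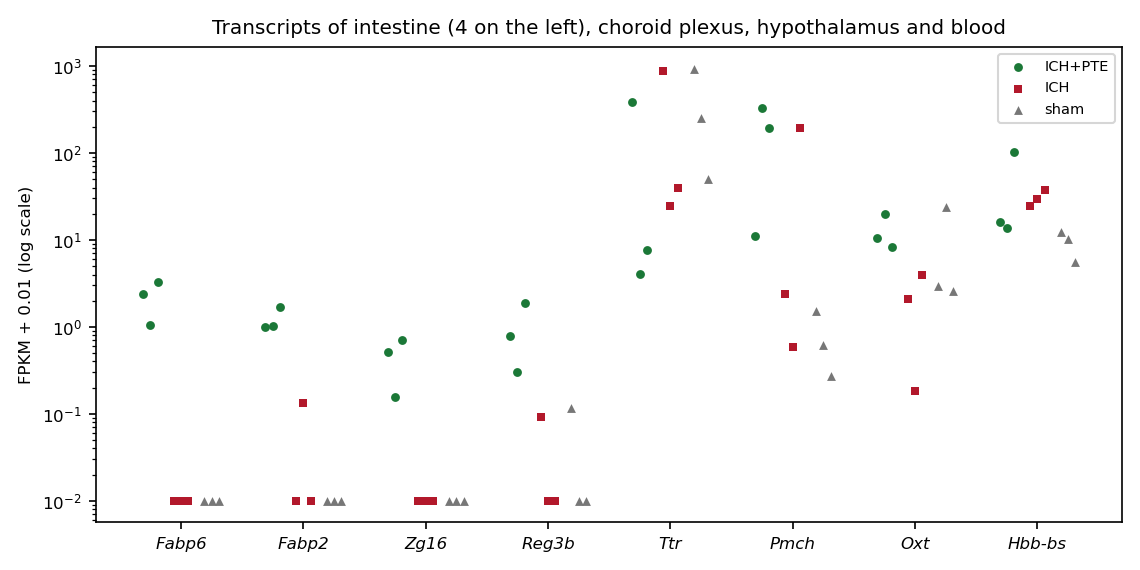
FPKM plus 0.01 on a log scale for 8 transcripts of intestine, choroid plexus, hypothalamus and blood, 1 point per library, with ICH+PTE left of ICH and sham. Fabp6 and Zg16 were above 0 in the 3 ICH+PTE libraries only, Ttr was highest in the first library of each group, and Hbb-bs was highest in ICH+PTE 3 at 102 FPKM.

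Of 9 listed genes of the choroid plexus 2 were tested, and limma called 0 of them, with 0 at an unadjusted p under 0.05. Ttr (adjusted p = 0.384 with all 6 libraries) was called lower without ICH+PTE 1 (-3.97, adjusted p = 0.0461) and without both ICH 1 and ICH+PTE 1 (-2.37, adjusted p = 0.00263). Without ICH 1 the chloride channel gene Clic6 was called higher (1.40, adjusted p = 0.0042). Of 9 erythroid genes 4 were tested and limma called 0, with 0 at an unadjusted p under 0.05, but 3 haemoglobin genes were called lower once ICH+PTE 3 was left out, among them Hbb-bs at -1.0039 (adjusted p = 0.00825). Of 10 liver genes 8 were tested and limma called 0, with 1 at an unadjusted p under 0.05. Without ICH+PTE 3, 4 of them were called lower, and without ICH+PTE 1, 2 were called higher and 1 lower. Of 10 genes of exocrine pancreas only the elastase Cela1 was tested. It was lower at 1.396, 3.39 and 2.16 FPKM in the ICH+PTE libraries, against 9.99, 11.5 and 10.3 FPKM in the ICH libraries (-2.04 ± 0.24, adjusted p = 0.00039). Cela1 does not stand for the list. Ctrb1, below the filter, was at 0.719, 0.769 and 0 FPKM in the ICH+PTE libraries, against 0, 0 and 0.0329 FPKM in the ICH libraries. When every gene above 0 in any library was tested, the list median was 0.132. Of 10 skeletal muscle genes 4 were tested and 3 were called lower, with differences from -1.898 to -0.99. Of these 3, Tnnt3 and Mylpf passed the filter through ICH alone, so their calls are partly set by it, and the gene not called, Pvalb, is also a gene of interneurons. Of 10 pituitary genes only Pomc was tested, and it was not called (0.06 ± 0.39, adjusted p = 0.906). The Y-linked Eif2s3y ran from 9.84 to 18.7 FPKM in all 9 libraries, and of 4 tested sex-specific genes only Ddx3y was called, at 0.52 ± 0.15 (adjusted p = 0.02). That call was lost without ICH 2, ICH 3 or ICH+PTE 3 (adjusted p = 0.061, 0.0545 and 0.0646).

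The ICH+PTE libraries overlapped the sham libraries in 61.0% of all tested genes. Of the 974 genes higher by at least 2-fold, the ICH+PTE libraries overlapped sham in 692 (71%), lay above it in 190 (19.5%) and below it in 92 (9.45%). Of the 1739 lower by at least 2-fold, they overlapped sham in 1001 (57.6%), lay above it in 569 (32.7%) and below it in 169 (9.72%). The median over the phagocytic list of log2(FPKM + 0.5) minus that of the sham mean was -0.02, 0.78 and 0.39 in the ICH+PTE libraries and 3.25, 3.71 and 3.54 in the ICH libraries. The same median of the cortical list was 0.60, -0.18 and -0.03 in the ICH+PTE libraries and -2.26, -1.67 and -1.58 in the ICH libraries. For both lists the treated libraries stood nearer to the sham level of 0 than the untreated ones. For the thalamic and glucocorticoid-induced lists the treated libraries stood farther from it than the untreated ones. The thalamic list was at 0.61, 0.93 and 1.28 in the ICH+PTE libraries and 0.27, -0.11 and -0.15 in the ICH libraries. The glucocorticoid-induced list was at 1.70, 1.47 and 1.47 in the ICH+PTE libraries and 1.07, 0.26 and 0.30 in the ICH libraries. The striatal list was at -1.95, -1.47 and -1.23 in the ICH+PTE libraries and -1.14, -1.90 and -1.38 in the ICH libraries, with overlapping values. The reactive astrocyte list was at 1.53, 2.03 and 1.77 in the ICH+PTE libraries and 2.11, 2.85 and 2.65 in the ICH libraries. Its treated libraries stood nearer to the sham level than the untreated ones but still above every sham library. Overlap with sham is a position of 3 libraries and no test of equality.

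**Figure D5:**
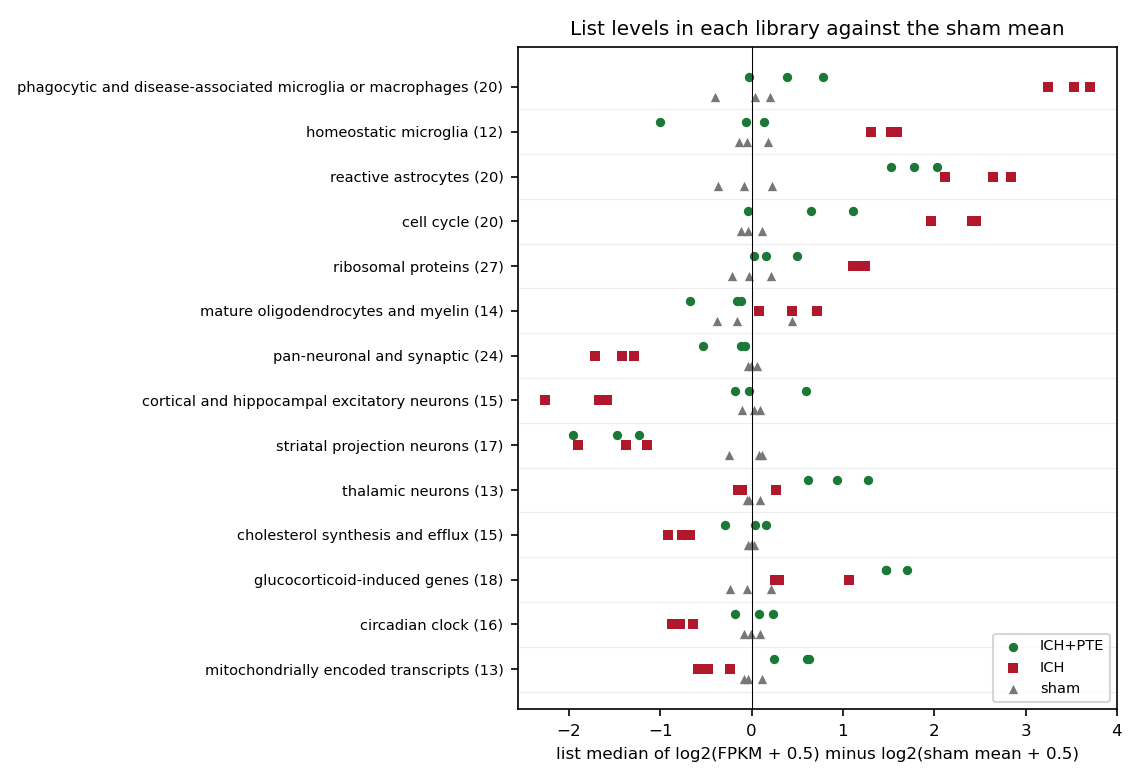
Median over the members of 14 gene lists of log2(FPKM + 0.5) minus log2(sham mean + 0.5), 1 point per library, with ICH+PTE above ICH and sham. Numbers in brackets are the tested members. The phagocytic list lies between -0.02 and 0.78 in ICH+PTE and between 3.25 and 3.71 in ICH, while the striatal list lies at -1.14 or lower in all 6 libraries.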

How the data were processed

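Poly(A)-selected RNA of 9 mouse brains was sequenced with a strand-keeping dUTP protocol, per the labels' protocols. The authors deposited FPKM per gene and library. cutadapt 1.9, HISAT2 2.0.4 and StringTie 1.3.4d are named in the submitters' processing notes. No source used here states the genome build. Of 36224 gene identifiers shared with GENCODE M21, 87.9% had the same position there. Few low values were whole multiples of 1 read, so depth is unknown and no count test was run.

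Values were taken as log2(FPKM + 0.5) for the 14810 genes with FPKM of at least 1 in at least 3 of the 6 libraries. limma 3.58.1 (R 4.3.3) with a mean-variance trend compared ICH+PTE with ICH, 4 residual degrees of freedom, Benjamini-Hochberg adjusted over all tested genes. Each library is 1 mouse. Same-numbered libraries were not treated as pairs, since the correlations of their deviations (0.2135, 0.2588 and 0.0254) were not all over 0.1. Named genes were the 12 largest called rises and falls averaging 2 FPKM or more in the higher group, each list's largest rise and fall and its 3 genes of highest mean, and a set chosen by hand; other genes were named after their values were seen. The members and lists were chosen with earlier results of these data known. The fit was tested on simulated data. Alternatives are given in the closing section. Some genes of the lists are counted but not reported by name here.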

Additional observations from a re-analysis of the deposited data

How the results depend on the processing

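Without haemoglobin and mitochondrially encoded genes in the scaling, 5619 genes were higher, 2975 lower and 1760 higher by at least 2-fold. Leaving out 1 library at a time gave 2626 to 3656 genes higher and 3535 to 4529 lower, 831 to 1165 higher and 1548 to 2004 lower by at least 2-fold, and a mitochondrially encoded share of summed FPKM 12.34 to 14.02 percentage points higher. The lowest 2 counts of higher genes came without ICH 2 (2626) and without ICH 3 (2752). The small intestine sum over the full list differed by -0.643 FPKM, and by -4.892 to 2.011 with 1 library left out. Without the 3 genes of highest mean it differed by 3.625 FPKM, a value not recomputed with a library left out. With the replicate block 3705 genes were higher and 4527 lower, and 96.8% of calls were kept; 2 of 3 libraries correlated best with their own number. Under that block Ttr was called lower (-1.97, adjusted p = 0.000842, against 0.384 without it) and Pdgfra higher (0.30, adjusted p = 0.05 as rounded, against 0.0752). Leaving out both ICH 1 and ICH+PTE 1, chosen after seeing the data, gave 3465 higher and 4164 lower.

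Of the comparisons of a named gene with an alternative, 4481 stayed called in the same direction or stayed not called. Of the rest, 137 lost the call, 94 gained one and 8 reversed. The reversals were Alb at -0.44 without ICH+PTE 3 (highest without ICH+PTE 1, 0.31) and, under quantile normalization, Aldoa at 0.27, Atp5a1 at 0.40, Cox4i1 at 0.15, Gfap at 0.11, Glul at 0.44, Rplp1 at 0.0697 and Serpina3n at 0.72. A change of sign in a gene called in neither fit was not counted as a reversal and is part of the 4481. The cause was not tested. Sequencing depth is unknown, so counting error could not be given, and 3 mice a group limit the precision.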
